A study of Mus musculus with 2 samples.

Results

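The collagen and laminin chain genes encode the subunits of the main structural proteins of the extracellular matrix. Here they were followed in single-cell RNA counts of CD31+ cells from the mesentery of mice at postnatal day 8. Members were chosen by symbol, as Col, a number, a and a number, or as Lama, Lamb or Lamc and a number, which gave 55 of the 28692 genes counted. Of these, 42 had at least 50 UMIs (unique molecular identifiers, each standing for 1 captured mRNA molecule) over both libraries and were described. They comprised 17 of 19 basement membrane chains, 8 of 11 fibrillar chains and 17 of 25 other collagen chains. The 13 genes left out were Col10a1 with 2 UMIs, Col19a1 with 4, Col24a1 and Col6a5 with 8 each, Col2a1 with 9, Lama1 with 12, Col4a3 with 19, Col6a4 with 21, Col8a2 with 23, Col11a1 with 30, Col25a1 with 38, Col26a1 with 42 and Col6a6 with 45. Just inside the limit were Col28a1 with 50 UMIs, Col4a6 with 51, and Col20a1 and Lamc3 with 53 each.

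The study compared mice lacking Folliculin (Flcn), a tumor suppressor, in endothelial cells with controls. The control library (labelled cont) and the KO library each held the pooled cells of 3 C57BL/6 mice, isolated on beads against CD31, a surface protein of endothelial cells that blood cells also carry. In the KO mice the floxed Flcn alleles were deleted by a tamoxifen-inducible Cre recombinase under the Cdh5 promoter, which drives expression in endothelial cells, after subcutaneous 4-hydroxytamoxifen at 40 µg in the first postnatal week. The labels give the other group only as control. The note on 4-hydroxytamoxifen at 40 µg stands on both samples alike and names no genotype, and the alleles of the control mice are not given in the sources used here. With 1 library per genotype there were no replicates, so the spread between samples is unknown, no test between genotypes was possible, and every ratio between the libraries below is a description of these 2 libraries.

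The control library held 6814 cells and 64639756 UMIs and the KO library 4459 cells and 60805779 UMIs, and 6 barcodes occurred in both, none of them in an endothelial cell. Endothelial cells, taken as those with at least 2 UMIs of Cdh5 (VE-cadherin, an endothelial junction protein), numbered 566 in the control (8.31% of cells) and 892 in the KO library (20%), with medians of 16127 and 24415 UMIs per cell. Levels are given in CPM, the UMIs of a gene scaled to 1000000 UMIs of the group. Flcn itself was at 10.2 CPM (95% interval 8.64 to 12.1) in the control endothelial cells and at 9.74 CPM (8.60 to 11) in those of the KO library, but a 3′ tag need not span the deleted exon, so this level does not check the deletion. Prox1, the transcription factor that specifies lymphatic identity, was at 116 CPM in control and 229.8 CPM in KO endothelial cells. Xist, expressed from the inactive X chromosome of females, had 0 UMIs in the control VEC-like cells defined below against 926 CPM in those of the KO library, so the sex of the pooled mice differed between the libraries and cannot be told apart from the genotype. Intervals here and below are exact 95% Poisson limits and cover counting error only.

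A basement membrane is the thin sheet of matrix on which endothelial cells sit. Its scaffold is built of type IV collagen, in which each molecule winds 3 chains, commonly a pair of α1 and a single α2, and of laminins, each a cross of an α, a β and a γ chain that binds integrins and dystroglycan on the cell surface. The multiplexins, collagens XV and XVIII, join this sheet to the tissue beneath. Fibrillar collagens I, III and V instead form the banded fibers of connective tissue and of the vessel wall, and are best known as products of fibroblasts and smooth muscle cells. Type VI collagen forms beaded microfilaments, and transmembrane collagens such as XIII and XXIII stay anchored in the plasma membrane.

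Endothelial cells were clustered without the chain genes and named from marker genes. There were 3 groups of lymphatic endothelial-like cells (LEC-like), called after a gene that led them, namely Lcn2-led (44 control and 157 KO cells), Aqp8-led (21 and 122; high in Cldn11, a gene of lymphatic valves and collecting vessels) and Tnxb-led (14 and 21). Blood endothelial groups were venous-like (VEC-like, 72 and 121 cells), high endothelial venule-like (HEV-like, 57 and 74), arterial-like (AEC-like, 53 and 110) and capillary-like (28 and 16). A Cxcl12-led group (129 and 46) carried 6 of 7 capillary markers but stayed unnamed. Its leading genes held the arterial markers Cxcl12 and Sox17 and no capillary marker. A Marco-led group (17 and 43 cells) and an H19-led group (0 and 46 cells, in the KO library alone and led by haemoglobin genes) also stayed unnamed. Proliferating-like cells (56 and 60) and cells led by genes of blood cells (75 and 76) are mixtures of types and are left out of the counts below. The remaining cells held 25 and 28 mesenchymal-like and 5590 and 2980 haematopoietic-like cells. The cells named VEC-like were at 50.8 CPM of Prox1 in the control and 151 CPM in the KO library, so this group is venous by its markers but not free of Prox1. A count of 0 was taken to allow up to 3 counts, which is 12.9 CPM in control Tnxb-led and 14.8 CPM in KO capillary-like cells, and levels given below as at or under a value are measured ones.

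The 2 chains of the main type IV collagen network, Col4a1 and Col4a2, led all members with 30454 UMIs for Col4a1 alone. Their genes lie head to head, Col4a1 at chr8:11198423-11312826 on the minus strand and Col4a2 on the plus strand (GRCm38), and in RefSeq the 300 bases around their starts (250 before and 50 after) share 78 bases, with the annotated starts overlapping by 22 bases. Their promoters are shown because both genes were highest in capillary-like and lowest in AEC-like cells, and that of Col23a1, the transmembrane collagen XXIII, because it was called higher in the KO library in more types than any other chain. Capitals mark matches on either strand to the GC box GGGCGG, which factors of the Sp1 family can bind, and to the CCAAT box. The windows are Col4a1 chr8:11312777-11313076 on the minus strand, Col4a2 chr8:11312555-11312854 on the plus strand and Col23a1 chr11:51289670-51289969 on the plus strand, each written from 5′ to 3′.
Col4a1: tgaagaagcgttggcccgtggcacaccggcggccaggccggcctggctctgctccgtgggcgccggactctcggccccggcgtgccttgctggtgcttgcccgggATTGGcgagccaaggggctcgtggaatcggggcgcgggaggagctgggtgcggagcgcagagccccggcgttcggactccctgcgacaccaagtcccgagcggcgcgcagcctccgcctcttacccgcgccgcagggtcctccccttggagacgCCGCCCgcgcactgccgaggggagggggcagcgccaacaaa
Col4a2: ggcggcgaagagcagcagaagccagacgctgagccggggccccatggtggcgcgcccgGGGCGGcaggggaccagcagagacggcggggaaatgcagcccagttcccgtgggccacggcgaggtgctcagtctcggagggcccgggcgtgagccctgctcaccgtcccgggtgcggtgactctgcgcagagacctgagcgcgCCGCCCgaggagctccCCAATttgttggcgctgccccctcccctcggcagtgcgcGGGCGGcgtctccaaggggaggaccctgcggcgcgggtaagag
Col23a1: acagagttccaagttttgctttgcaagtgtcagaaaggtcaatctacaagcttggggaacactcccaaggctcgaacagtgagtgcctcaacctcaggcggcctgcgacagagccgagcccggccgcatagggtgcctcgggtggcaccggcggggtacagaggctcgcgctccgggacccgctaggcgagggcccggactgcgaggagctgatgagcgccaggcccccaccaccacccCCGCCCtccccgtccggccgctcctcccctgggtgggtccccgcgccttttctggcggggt

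The Col4a1 window held 1 GGGCGG and 1 CCAAT, the Col4a2 window 3 and 1, and the Col23a1 window 1 GGGCGG. Of the 42 members, 31 had such a window in the table used, with 35 windows in all. GGGCGG occurred in 20 of the 35, beside 35.9% of 32544 promoter windows of the genome, CCAAT in 11 beside 37.4%, and TATAAA in 4 beside 13.6%. CACGTG, the palindromic E-box that MiT/TFE factors such as TFE3 can bind, occurred in 0 of the 35 windows beside 7.17% of all. A match is a run of letters in this window only, and an absent match says nothing of sites elsewhere.

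**Figure D1:**
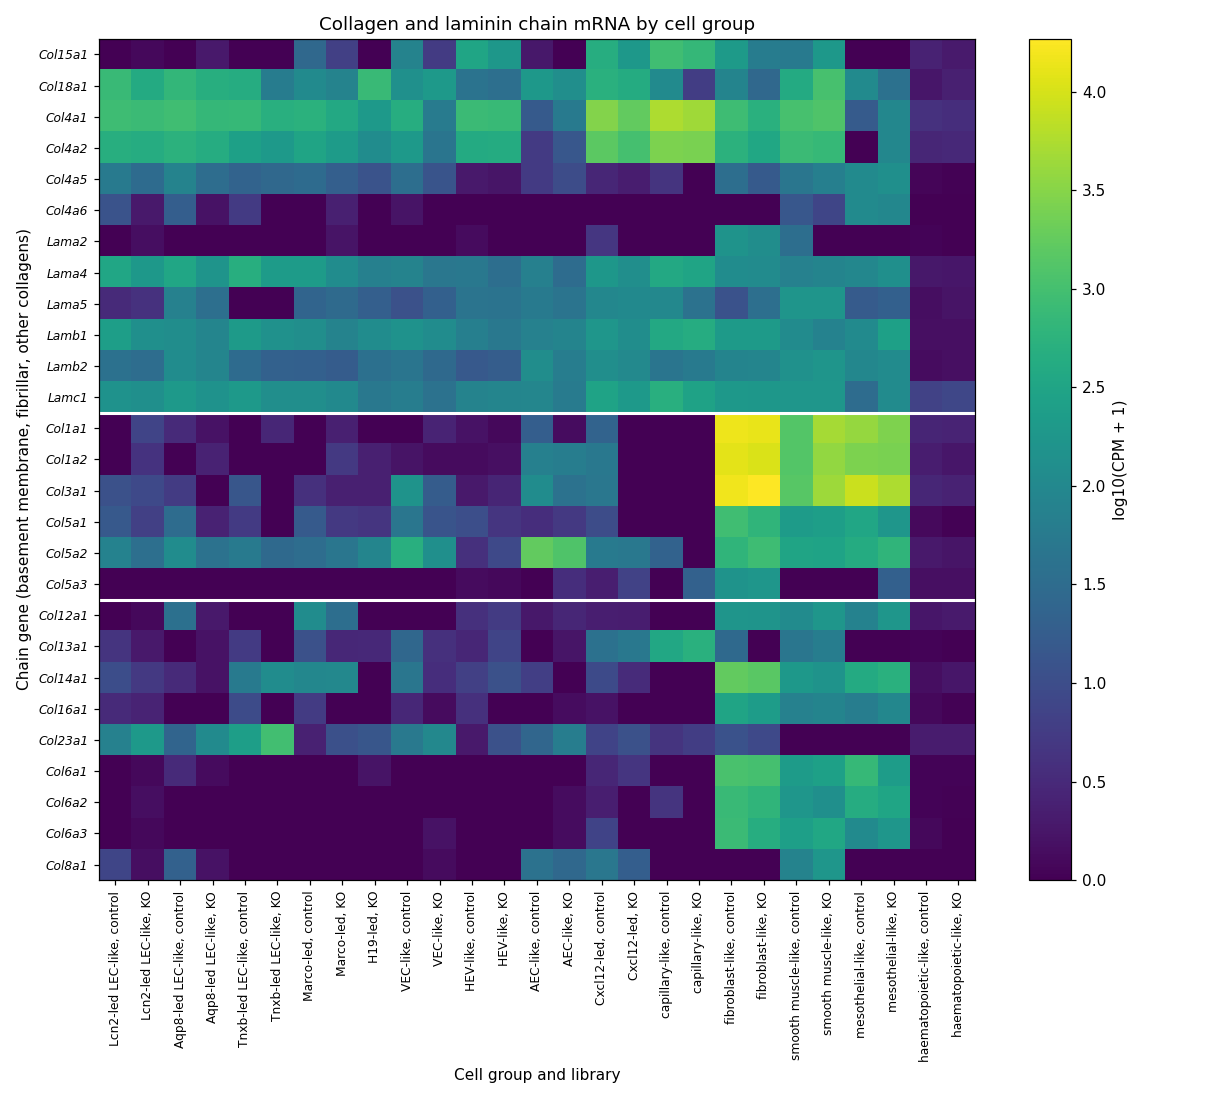
Color shows log10 of CPM plus 1 for the chain genes that reached 100 CPM in 1 group of either library, with 1 column per cell group and library and white lines between basement membrane, fibrillar and other chains. Col4a1 and Col4a2 were highest in capillary-like and Cxcl12-led cells, Col5a2 was the fibrillar chain highest in AEC-like cells, and Col1a1, Col1a2, Col3a1 and type VI chains were high in mesenchymal-like cells.

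Among these cells, which were isolated on CD31, endothelial cells held most UMIs of the main basement membrane chains, both libraries together. Such shares depend on how many cells of each kind were captured, and do not give the level per cell. They held 96.0% of Col4a1 UMIs, 95.1% of Col4a2, 94.5% of Col18a1, 94.6% of Col15a1, 93.9% of Lama4, 93.7% of Lamb1 and 92.2% of Lama3. They also held 93.1% of Col5a2 and 95.3% of Col23a1. By contrast, 93.3% of Col1a1, 89.0% of Col1a2, 85.1% of Col3a1 and 95.6% of Col6a1 UMIs came from 53 mesenchymal-like cells. In haematopoietic-like cells Col4a1 was at 3.06 CPM in the control and 2.67 CPM in the KO library.

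Summed over the 17 basement membrane chains, capillary-like cells were highest, at 10646 CPM in the control and 9107 CPM in the KO library. The Cxcl12-led group followed with 6411 and 4082 CPM. Among LEC-like groups the sums were 2937 and 2178 CPM (Lcn2-led), 3077 and 2171 CPM (Aqp8-led), and 2391 and 1292 CPM (Tnxb-led). HEV-like cells were at 1832 and 1619 CPM. The lowest endothelial sums were those of VEC-like cells, at 1266 and 572 CPM, and AEC-like cells, at 722 and 536 CPM. Haematopoietic-like cells were at 48.8 and 46.8 CPM. Mesenchymal-like cells, few in number, were at 2465 and 2371 CPM, and the smooth muscle-like cells among them at 3128 and 3977 CPM. Both were above HEV-like, VEC-like and AEC-like cells, so these chains were not particular to endothelial cells. The order of capillary-like, Cxcl12-led, LEC-like, HEV-like, VEC-like and AEC-like cells was therefore the same in both libraries, except that Tnxb-led cells were above HEV-like cells in the control and below them in the KO library. The place of VEC-like above AEC-like cells is not settled. Their KO intervals overlapped, at 546 to 599 and 509 to 564 CPM. In the control, 13 of 72 VEC-like cells held 624 of the 679 Col4a1 UMIs in that sum. Since 3′ UMIs do not grow with transcript length, these sums add molecules rather than bases.

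Col4a1 had the highest level of the basement membrane chains in capillary-like cells. It was at 5581 CPM in control capillary-like cells (5312 to 5860.0) and 4632 CPM in those of the KO library (4341 to 4939), and at 2988 and 1766 CPM in Cxcl12-led cells. LEC-like and HEV-like cells lay in a middle band, from 487 to 901 CPM in both libraries. AEC-like cells were lowest, at 14.9 CPM (8.69 to 23.9) in the control and 53.4 CPM (45.1 to 62.8) in the KO library. Col4a2 was likewise highest in capillary-like and lowest in AEC-like cells, with 2648 and 2586 CPM in capillary-like cells and 4.39 and 13.5 CPM in AEC-like cells. The ratio of Col4a1 to Col4a2 UMIs was 1.81 and 1.87 in Lcn2-led, 1.97 and 1.78 in HEV-like and 2.11 and 1.79 in capillary-like cells of the control and KO libraries. Over all endothelial types compared it lay between 1.55 and 2.80, except in AEC-like cells, at 3.40 (1.20 to 11.8) and 3.95 (2.73 to 5.82), and in KO VEC-like cells, at 1.29 (1.03 to 1.62).

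Col4a5 and Col4a6, X-linked chains that assemble the α5 and α6 network of smooth muscle and epithelial basement membranes, were found at low levels in LEC-like cells. Col4a5 was at 54.6 and 29.9 CPM in Lcn2-led and 81.3 and 32.3 CPM in Aqp8-led cells of the control and KO libraries, but at 0.947 and 0.751 CPM in HEV-like cells. Col4a6 had 10 and 8 UMIs in control Lcn2-led and Aqp8-led cells and 4 and 2 UMIs in the KO cells, and it was highest in the few mesothelial-like cells, at 109.5 and 94.8 CPM. Col4a4, a chain of the glomerular network, stayed at or below 4.30 CPM in every endothelial group, and 63.4% of its UMIs came from haematopoietic-like cells.

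The multiplexins Col18a1 and Col15a1 were split between vessel types. Col18a1, whose C-terminal fragment is endostatin, was at 766 and 406 CPM in Lcn2-led and 671 and 476 CPM in Aqp8-led cells, at 784 CPM in the H19-led KO cells, and at 41.3 and 35.8 CPM in HEV-like cells. Col15a1 instead was at 893 and 697 CPM in capillary-like, 452 and 191 CPM in Cxcl12-led and 323 and 179 CPM in HEV-like cells. In the 3 control LEC-like groups no Col15a1 UMI was counted, which allows a level of up to 3.41 CPM in Lcn2-led, up to 6.78 CPM in Aqp8-led and up to 12.9 CPM in Tnxb-led cells. The KO groups had 1 UMI in Lcn2-led, 3 in Aqp8-led and 0 in Tnxb-led cells, where 0 allows up to 5.60 CPM. In AEC-like cells Col15a1 was at 0.878 CPM in the control, and no UMI was counted in the KO library.

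**Figure D2:**
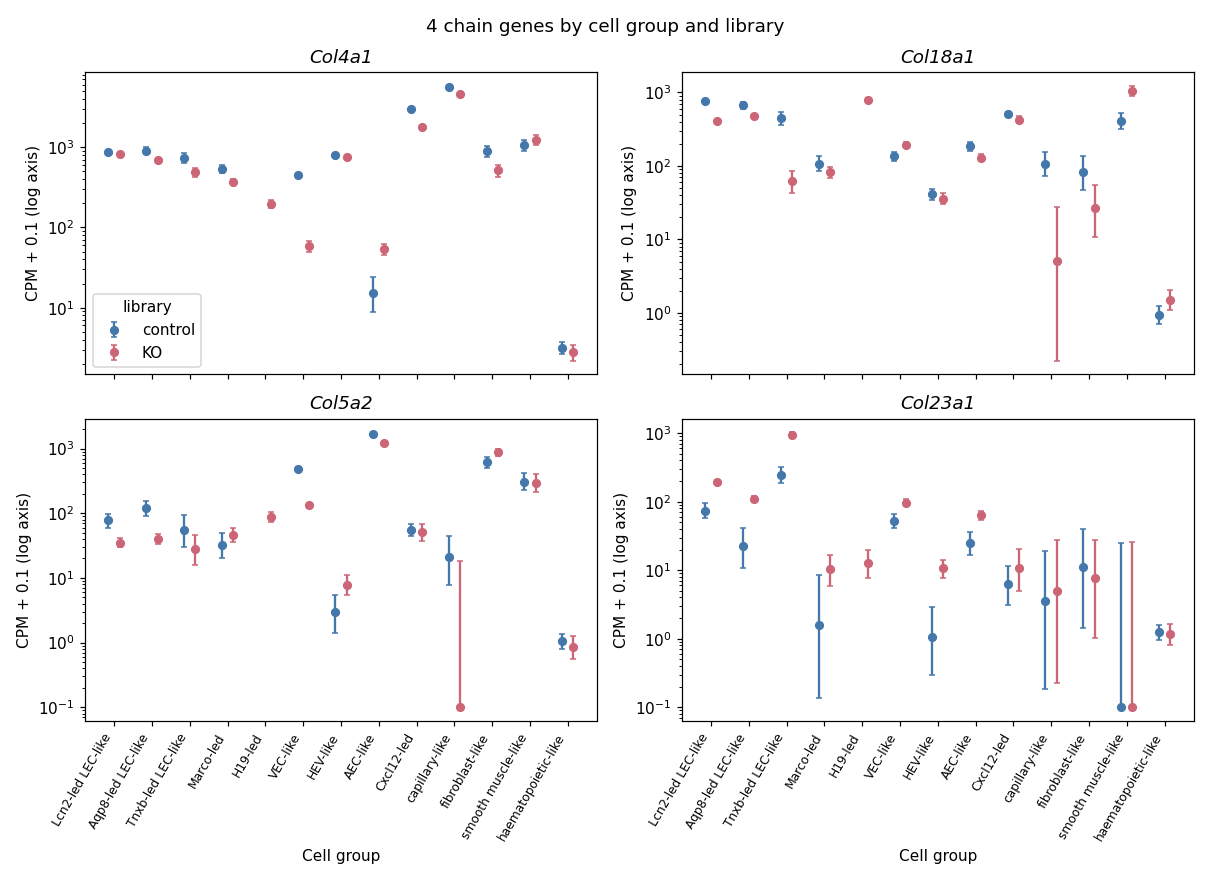
Points show CPM plus 0.1 (log axis) of Col4a1, Col18a1, Col5a2 and Col23a1 by cell group, blue for control and red for KO, with exact 95% Poisson intervals as bars. In VEC-like cells Col4a1 was at 448 CPM in the control and 58.1 CPM in the KO library, Col5a2 was above 1200 CPM in AEC-like cells of both, and Col23a1 was highest in Tnxb-led cells.

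The laminin chains found in endothelial cells were mainly Lama4, Lamb1 and Lamc1, which join into the α4 laminin typical of vessels, with the α5 chain Lama5 and the β2 chain Lamb2 at lower levels in most groups. Lama4, the α4 chain of endothelial laminin, was at 331 and 185 CPM in Lcn2-led, 332 and 161 CPM in Aqp8-led and 477 and 218 CPM in Tnxb-led cells, and at 377 and 311 CPM in capillary-like cells. It was at 49.6 and 34.1 CPM in HEV-like cells. Lama5, the α5 chain, was at 96.9 and 39.6 CPM in capillary-like and 92.4 and 107 CPM in Cxcl12-led cells. Within the LEC-like cells Lama5 was at 74.5 and 35.8 CPM in the Aqp8-led group but at 2.27 and 3.01 CPM in the Lcn2-led group and at 0 UMIs in the Tnxb-led group of both libraries. Lamb1 ran from 67.5 CPM in HEV-like to 377 CPM in capillary-like cells of the control, and Lamc1 from 62.6 CPM in VEC-like to 485 CPM in capillary-like cells. Among endothelial types Lamb2 was highest in control Cxcl12-led cells at 129.5 CPM and in control AEC-like cells at 125 CPM.

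Other laminin chains had narrower places. Lama3, known best from epithelial laminin, was at 73.7 and 36.6 CPM in AEC-like, 41.5 and 26.1 CPM in Cxcl12-led and 27.7 and 49.4 CPM in capillary-like cells, and had at most 3 UMIs in each LEC-like group of either library. Lama2, the α2 chain of muscle, was at 156 and 123 CPM in fibroblast-like cells and had at most 6 UMIs in each endothelial group. Lamc3 reached 6.14 CPM in control AEC-like cells. Lamb3, the β3 chain, was an exception among laminins, with 91.9% of its UMIs in haematopoietic-like cells, where it was at 31.6 CPM in the control and 28.9 CPM in the KO library.

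Among fibrillar chains, Col5a2 was the one found in endothelial cells at high levels. It was at 1713 CPM in control AEC-like cells (1638 to 1790.4) and 1242 CPM in those of the KO library (1201 to 1285), above the 616 and 872 CPM of fibroblast-like cells. VEC-like cells were at 483 and 132 CPM, and HEV-like cells at 2.84 and 7.76 CPM. Collagen V molecules mostly hold α1 chains with α2, yet Col5a1 was at 2.63 and 4.02 CPM in AEC-like cells, so that the ratio of Col5a2 to Col5a1 UMIs was 650.3 in the control and 309 in the KO library. In VEC-like cells it was 10.6 and 11.4. Fibroblast-like cells, in contrast, were at 911 and 625 CPM of Col5a1 and at similar numbers of UMIs of both chains, with ratios of 0.677 and 1.40. Protein was not measured, so which chains these cells paired is unknown.

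Col3a1, the chain of collagen III in vessel walls, was at 158 and 16.5 CPM in VEC-like and 118 and 39.1 CPM in AEC-like cells. In control AEC-like cells 63 of its 134 UMIs came from 1 cell, without which the level was 66.2 CPM. Col1a2 was at 72.0 and 62.2 CPM in AEC-like cells, where Col1a1, its usual partner in collagen I, was at 17.6 and 0.366 CPM. In VEC-like cells Col1a1 had 0 UMIs in the control and Col1a2 had 1, beside 239 UMIs of Col3a1. In Cxcl12-led cells of the control, Col1a2 and Col3a1 stood at 49.7 and 49.0 CPM, with 65 of 79 and 71 of 78 of their UMIs in 1 cell. Markers of smooth muscle and pericytes moved with these chains in part, since their summed level over 8 genes was 542 and 642 CPM in AEC-like cells, 196 and 68.7 CPM in VEC-like and 396 and 41.5 CPM in Cxcl12-led cells. The 7 fibroblast markers summed to 327 and 190 CPM in AEC-like cells, with 2 and 3 of the 7 at 0, and to 243 and 73.9 CPM in VEC-like cells, with 3 of 7 at 0 in each. Of these, Dcn had 0 and 5 UMIs in VEC-like and 2 and 0 UMIs in AEC-like cells, against 8819 and 13212 CPM in fibroblast-like cells. The 7 markers together had 368 and 229 UMIs in VEC-like and 372 and 520 UMIs in AEC-like cells. Nearly all of these came from other genes of the list, so Dcn does not stand for the list. The part of mural cell or fibroblast RNA in these values was not tested.

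The remaining fibrillar chains were rare in endothelial cells. Col5a3 reached 156 and 174 CPM in fibroblast-like cells and had at most 7 UMIs in each endothelial type. Col11a2, a chain of cartilage collagen XI, had 91.1% and Col27a1 64.4% of its UMIs in haematopoietic-like cells.

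Of the other collagens, the transmembrane Col23a1 and Col13a1 were highest in different vessels. Col23a1 (chr11:51289920-51583918) was at 245 and 945 CPM in Tnxb-led, 73.9 and 195 CPM in Lcn2-led and 22.6 and 109 CPM in Aqp8-led cells, and at 52.7 and 96.1 CPM in VEC-like cells. In capillary-like cells it had 1 UMI in each library. Col13a1, in contrast, was at 357 and 519 CPM in capillary-like and 37.7 and 50.9 CPM in Cxcl12-led cells, and at or below 4.30 CPM in LEC-like cells.

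The fibril-associated collagens, which sit on the surface of collagen fibers, appeared in a few groups. Col14a1 was at 93.9 and 95.8 CPM in Marco-led, 55.9 and 119.5 CPM in Tnxb-led and 46.1 and 2.58 CPM in VEC-like cells, and Col12a1 at 116 and 33.3 CPM in Marco-led cells. In KO Marco-led cells Dcn was at 87.6 CPM, against 14.9 CPM in the control. The part of fibroblast RNA in the Col14a1 and Col12a1 values of this group was not tested. Col9a1 was at 12.3 and 17.5 CPM in AEC-like cells and had 0 UMIs in each of the other 8 endothelial types compared below. Col8a1, a short-chain collagen of vessel walls, was at 40.4 and 26.3 CPM in AEC-like and 47.8 and 17.8 CPM in Cxcl12-led cells. Col22a1, a collagen of tissue junctions, was at 14.9 and 15.6 CPM in Marco-led cells. Col16a1 stayed at or below 8.60 CPM in endothelial groups, and Col28a1 reached 12.6 CPM in control Cxcl12-led cells. Col7a1, Col9a2, Col9a3, Col17a1 and Col20a1 stayed below 8 CPM in every endothelial group.

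The type VI chains were the clearest mesenchymal set. Their sum over Col6a1, Col6a2 and Col6a3 was 1676 and 1513 CPM in mesenchymal-like cells and at most 9.43 CPM in any endothelial type. Of the mesenchymal-like cells, 11 control and 15 KO cells were fibroblast-like, 10 and 10 smooth muscle-like and 4 and 3 mesothelial-like, with 5 cells near the limit between these classes. Col1a1 was at 14351 and 13282 CPM, Col3a1 at 15267 and 18501 CPM and Col14a1 at 1716 and 1512 CPM in fibroblast-like cells. Smooth muscle-like cells were lower in Col1a1, at 1325 and 4979 CPM, and carried more of some basement membrane chains, with Col4a1 at 1063 and 1236 CPM and Col18a1 at 410.4 and 1057 CPM, against 83.3 and 27 CPM of Col18a1 in fibroblast-like cells. With so few cells, a single cell can set these values.

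Between endothelial types, a chain was called when its CPM, with 1 count added, differed at least 2-fold in the same direction in both libraries, among genes with at least 50 UMIs over the 4 sums. Over 8 type pairs, 124 chain and pair combinations could be compared and 61 were called. Of all genes, 1.51 to 9.43% were called in each direction, depending on the pair. The 61 include chains almost absent from a type, which could be called in a single direction only. Capillary-like cells were above AEC-like cells in 7 of 17 chains (6.94% of all genes were higher), namely Col4a1, Col4a2, Col13a1, Col15a1, Lama4, Lamb1 and Lamc1, and below in 6 (6.08% of all genes were lower), namely Col5a2, Col3a1, Col1a2, Col8a1, Col9a1 and Col23a1. Of the chains below, Col1a2, Col3a1, Col8a1 and Col9a1 had 0 UMIs in capillary-like cells of both libraries, so they passed the minimum of 50 UMIs through AEC-like cells and could be called in this direction only. Col5a2 and Col23a1, almost absent from capillary-like cells, could also be called only as lower there. In the same way, Col15a1 was almost absent from AEC-like cells and could be called only as higher in capillary-like cells. The log2 differences were 8.47 in the control and 6.43 in the KO library for Col4a1, and 8.98 and 7.54 for Col4a2.

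AEC-like cells were above VEC-like cells in 7 of 20 chains (4.02% of all genes higher), Col5a2, Col1a2, Col8a1, Col9a1, Lama3, Lama5 and Lamb2, and below in 5 (5.07% lower), Col4a2, Col15a1, Col5a1, Col13a1 and Col14a1. Col1a2, with 1 UMI in VEC-like cells of each library, Col8a1, with 0 and 1, and Col9a1, with 0, passed the minimum through AEC-like cells. They could be called only as higher. Col15a1, almost absent from AEC-like cells, could be called only as lower. For Col5a2 the log2 difference was 1.82 in the control and 3.23 in the KO library. All LEC-like cells in 1 sum were above VEC-like cells in 4 of 16 chains (5.85% higher), Col18a1, Col4a2, Lama4 and Lamc1, and below in 5 (5.72% lower), Col15a1, Col3a1, Col5a1, Col5a2 and Col13a1. Col15a1, almost absent from LEC-like cells, passed the minimum through VEC-like cells and could be called in this direction only. Other basement membrane chains were not called. Lamb1 was at 206 and 115 CPM in the LEC-like sums beside 149 and 116 CPM in VEC-like cells, and Col4a1 at 854 and 744 CPM beside 448 and 58.1 CPM. HEV-like cells were above VEC-like cells in 3 of 17 chains (9.43% higher), Col15a1, Col4a2 and Lama5, and below in 8 (8.69% lower), which included Col5a2, at log2 differences of -7.26 and -4.04, Col3a1, Col5a1, Col18a1, Col23a1, Col4a5, Lama3 and Lamb1. Col4a5, almost absent from HEV-like cells, passed the minimum through VEC-like cells and could be called in this direction only. The same held for Col3a1 and Col5a2, since the 8 fibrillar chains together had 56 and 62 UMIs in HEV-like cells.

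Closely related groups differed in single chains. Aqp8-led cells were above Lcn2-led cells in 2 of 12 chains (1.80% of all genes higher), Lama5 with log2 differences of 4.49 and 3.48, and Lamb2 with 1.63 and 1.39, and below in 0 (1.51% lower). Lama5 had 2 and 13 UMIs in Lcn2-led cells, so it passed the minimum through Aqp8-led cells and could be called in this direction only. Tnxb-led cells were above Lcn2-led cells in 2 of 11 (2.48% higher), Col23a1 with 1.73 and 2.28, and Col14a1 with 2.56 and 4.79, and below in 0 (2.30% lower). Capillary-like cells were above Cxcl12-led cells in 3 of 15 (1.95% higher), Col13a1, Lama4 and Lamb1, and below in 3 (2.36% lower), Col18a1, Col5a2 and Col8a1. Of the chains below, Col8a1 had 0 UMIs in capillary-like cells of both libraries. It passed the minimum through Cxcl12-led cells and could be called in this direction only. The same held for Col5a2, since the 8 fibrillar chains together had 6 and 4 UMIs in capillary-like cells. Marco-led cells were above LEC-like cells in 2 of 16 (6.08% higher), Col12a1 and Col14a1, and below in 4 (5.17% lower), Col18a1, Col23a1, Lamb2 and Col3a1. Intervals of these differences cover cells of single libraries and cannot stand for animals.

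The comparison of genotypes asked how chain mRNA differed between control and KO cells of the same type. A ratio was called at 2-fold or more, with 1 count added and at least 50 UMIs over both libraries. Over 9 endothelial types 100 chain and type pairs could be compared. Of these, 23 pairs (15 chains) were called lower and 6 pairs (3 chains) higher in the KO library, and 78 of the 100 lay below 0 on the log2 scale, beside 49.1 to 66.4% of all genes in each type. Depending on the type, 1.69 to 7.79% of all genes were called lower and 2.31 to 5.18% higher. The median log2 ratio of the members was below that of all genes in each of the 9 types, from -0.06 beside 0.01 in HEV-like cells to -1.55 beside -0.09 in VEC-like cells.

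**Figure D3:**
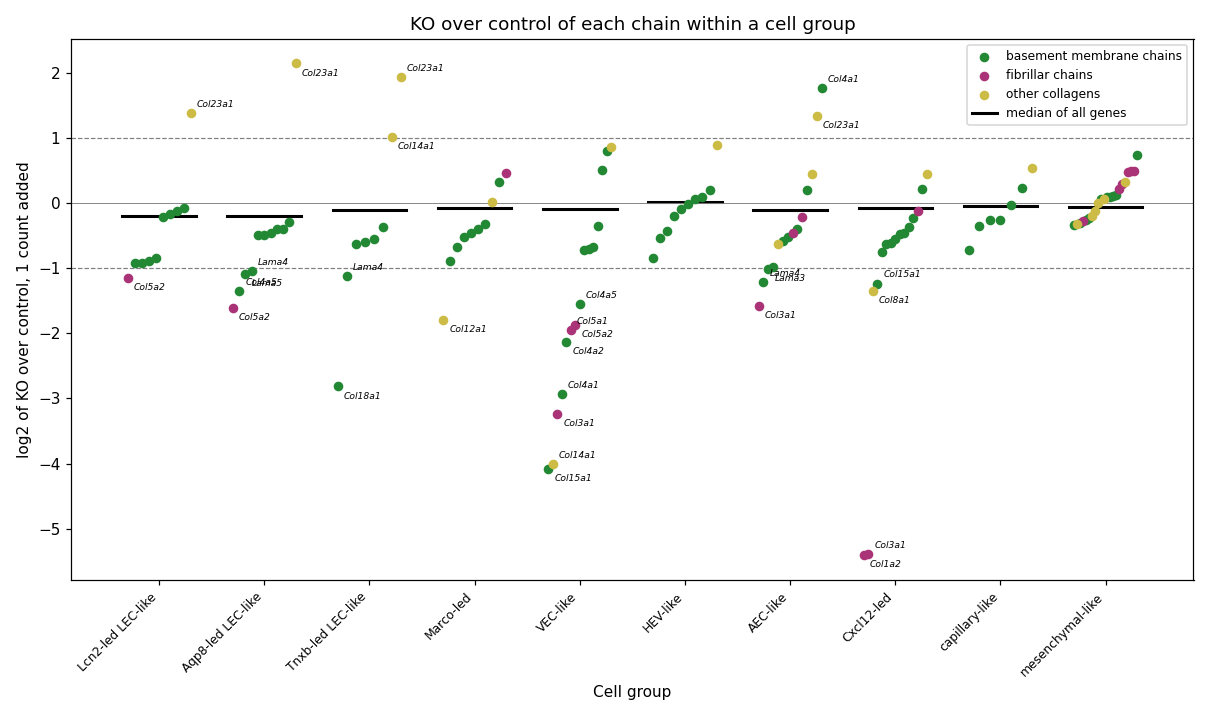
Each point is 1 chain in 1 cell group, with the log2 ratio of KO over control CPM (1 count added) on the y axis, green for basement membrane, purple for fibrillar and yellow for other collagens, black bars for the median of all genes and dashed lines at 2-fold. Called chains of endothelial types are named; 8 chains lie below the lower line in VEC-like cells, while Col23a1 lies above the upper line in 4 types.

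VEC-like cells had the most called chains of these 9 endothelial types, with 8 of 15 chains lower in the KO library (4.38% of all genes were lower) and 0 higher (3.29% higher). Col4a1 was at 448 CPM in the control and 58.1 CPM in the KO library, a ratio of 0.130 (0.109 to 0.153), and Col4a2 at 199 and 45.2 CPM, a ratio of 0.227 (0.184 to 0.278). Col15a1 was at 81.1 and 4.52 CPM, a ratio of 0.0557 (0.0296 to 0.0970), and Col4a5 at 34.3 and 11.6 CPM, a ratio of 0.339 (0.215 to 0.528). Col4a5 is X-linked, so its ratio cannot be told apart from the difference in sex. Fibrillar chains were lower too. Col5a2 had a ratio of 0.273 (0.241 to 0.309), Col5a1 of 0.255 (0.166 to 0.387) and Col3a1 of 0.104 (0.0756 to 0.142). Of the fibril-associated chains, Col14a1 had a ratio of 0.0559 (0.0232 to 0.116). Laminin chains were not called in these cells, with a ratio of 0.782 (0.660 to 0.927) for Lamb1 and 0.628 (0.477 to 0.831) for Lamc1, and Col18a1 was at 1.43 (1.22 to 1.68).

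Single cells showed that these chains did not have the same distribution. Of the 72 control VEC-like cells, 13 had at least 1000 CPM of Col4a1 and held 624 of its 679 UMIs, whereas 0 of 121 KO cells reached that level. The highest cell was at 4649 CPM in the control and 708 CPM in the KO library. In the other control cells the level was 44.1 CPM, beside 58.1 CPM in the KO cells. The median cell was at 0 CPM in the control and 17.4 CPM in the KO library, so the higher control sum came from this set of high cells. Col5a2 was spread more evenly, with the median cell at 443 CPM in the control and 129 CPM in the KO library. The 13 high cells also held most control UMIs of Col15a1, but few of Col5a2 and almost none of Col3a1. The one with most Col4a1 UMIs, 210, had 32 of Col15a1, 4 of Col5a2 and 0 of Col3a1. The control levels of Col4a1 and Col15a1 thus came from other cells than those of Col5a2 and Col3a1.

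**Figure D4:**
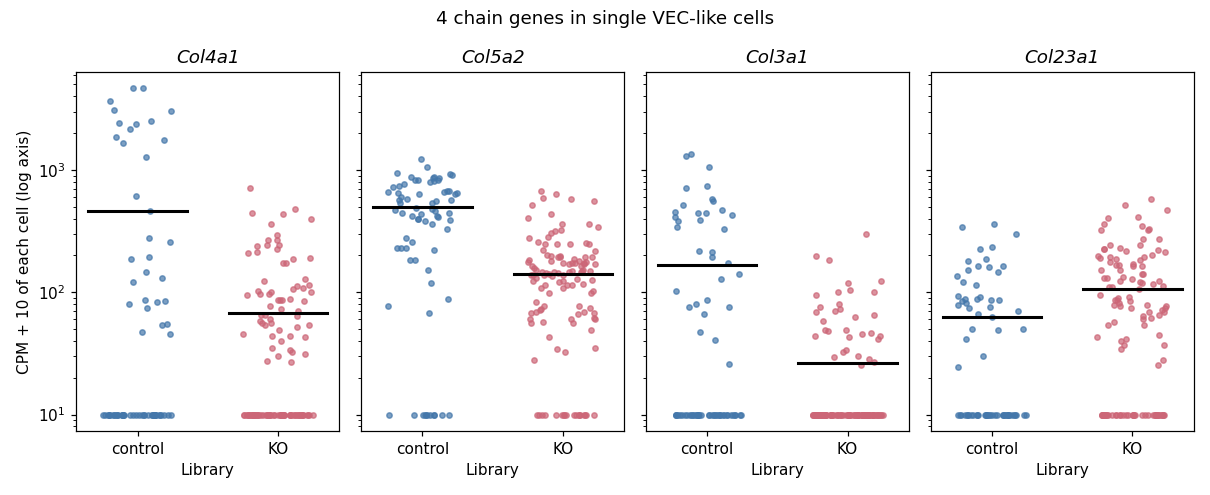
Each point is 1 VEC-like cell, with CPM plus 10 on a log axis, for Col4a1, Col5a2, Col3a1 and Col23a1 in the control (blue) and KO (red) libraries, and the bar is the CPM of the summed group plus 10. For Col4a1, 13 control cells lie above 1000 CPM and no KO cell does, whereas for Col5a2 the median cell is at 443 CPM in the control and 129 CPM in the KO library.

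Of these 13 cells, 10 had a UMI of Rgcc, a capillary marker, beside 22 of all 72 control and 37 of 121 KO VEC-like cells. In the cells with an Rgcc UMI, Col4a1 was at 999 CPM in the control and 64.5 CPM in the KO library. The 7 capillary markers summed to 9142 CPM in control and 3948 CPM in KO VEC-like cells, with 1 of 7 at 0 in each. The same sum was 7364 and 9200.5 CPM in capillary-like and 11707 and 18831 CPM in Cxcl12-led cells. Aqp1, a marker of this list, was among the leading genes of VEC-like cells, so the sum is not particular to capillary-like cells. Rgcc was at 79.8 and 28.1 CPM in VEC-like cells, and the fibroblast marker sum was lower in the KO library too. With the cells that had an Rgcc UMI left out, Col4a1 was at 126 and 54.5 CPM, a log2 ratio of -1.21, and Col4a2 at 70.9 and 45 CPM was no longer called, at -0.66. Of the 123 control UMIs of Col15a1, 105 lay in the cells with an Rgcc UMI, and without these cells Col15a1 was at 18.8 and 3.50 CPM, with too few UMIs to be compared. When the libraries were clustered without integration, the VEC-like cells gave log2 ratios of -0.43 for Col4a1 and 0.56 for Col4a2, so the type IV values depend on which cells are counted as venous. The fibrillar chains and Col14a1 were still called in cells without an Rgcc UMI, with Col5a2 at 546 and 118 CPM, Col3a1 at 196 and 16 CPM and Col14a1 at 51.1 and 2.0 CPM, and with a log2 ratio of -2.14 for Col5a2 without integration. The part of capillary, mural cell or fibroblast RNA in the VEC-like values was not tested.

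In AEC-like cells 3 of 14 chains were lower (2.62% of all genes) and 2 higher (2.61%) in the KO library. Col4a1 was higher there, at a ratio of 3.58 (2.16 to 6.31), from 17 UMIs in the control, and Col23a1 at 2.60 (1.74 to 4.03). The lower chains were Col3a1 at 0.333 (0.256 to 0.432), Lama4 at 0.432 (0.315 to 0.592) and Lama3 at 0.496 (0.367 to 0.671). Col5a2, the leading fibrillar chain of these cells, was at 1713 and 1242 CPM and was not called. The fibroblast marker sum of 327 and 190 CPM was lower with Col3a1 and the smooth muscle and pericyte sum of 542 and 642 CPM was not, and their part in these ratios was not tested.

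In LEC-like cells Col23a1 was higher in the KO library in each of the 3 groups. Its ratio was 2.64 (2.05 to 3.45) in Lcn2-led, 4.83 (2.59 to 10.2) in Aqp8-led and 3.86 (2.93 to 5.16) in Tnxb-led cells. In the control Tnxb-led cells 29 of its 57 UMIs came from 1 cell. Lower chains were Col5a2 in Lcn2-led cells (1 of 10 lower, beside 6.88% of all genes, and 1 higher, beside 4.28%), at 0.455 (0.340 to 0.615). In Aqp8-led cells 4 of 11 chains were lower (7.79% of all genes) and 1 higher (5.18%), the lower ones being Col5a2 at 0.331 (0.238 to 0.466), Col4a5 at 0.397 (0.269 to 0.599), Lama5 at 0.481 (0.324 to 0.732) and Lama4 at 0.485 (0.403 to 0.587). As in VEC-like cells, the ratio of the X-linked Col4a5 cannot be told apart from the difference in sex. In Tnxb-led cells 2 of 8 chains were lower (4.21%) and 2 higher (4.48%). Col18a1 was at 443 CPM in 14 control and 61.6 CPM in 21 KO cells, a ratio of 0.139 (0.0910 to 0.208), and Lama4 at 0.458 (0.35 to 0.599), while Col14a1 was higher at 2.14 (1.17 to 4.23), a log2 ratio of 1.01 that was called in 8 of 14 alternative settings.

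In Cxcl12-led cells 4 of 15 chains were lower (3.53% of all genes) and 0 higher (2.31%). Col15a1 was at a ratio of 0.422 (0.353 to 0.501) and Col8a1 at 0.372 (0.198 to 0.653), and the other two were Col1a2 and Col3a1, which rested on the 1 control cell described above and had 0 UMIs in the KO library. Marco-led cells had Col12a1 lower, 1 of 10 (4.39%), at 0.286 (0.196 to 0.415), and 0 higher (3.23%). The 12 haematopoietic markers summed to 1277 CPM in control and 531 CPM in KO Marco-led cells, and their part in this ratio was not tested. HEV-like cells had 0 of 10 called lower (1.69%) or higher (2.58%), with Col4a1 at 0.936 (0.887 to 0.987) and Col15a1 at 0.554 (0.503 to 0.611). Capillary-like cells had 0 of 7 called (3.23% lower, 4.27% higher), with Col4a1 at 0.830 (0.765 to 0.90), in 28 and 16 cells.

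The mixed groups had 9 of 17 chains lower (5.39% of all genes) and 1 higher (3.70%) in proliferating-like cells, and 7 of 15 lower (2.50%) and 1 higher (2.11%) in cells led by blood genes, and their make-up by vessel type was not resolved. Outside the endothelium, 0 of 22 chains were called in mesenchymal-like cells (2.57% of all genes lower, 1.97% higher) and 0 of 18 in haematopoietic-like cells (0.965% lower, 1.94% higher). In mesenchymal-like cells Col1a1 was at a ratio of 1.22 (1.17 to 1.28), Col3a1 at 1.40 (1.34 to 1.46) and Col4a1 at 0.854 (0.729 to 1.0).

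Genes that modify, bind or cut these chains were followed as a list of 45 other matrix genes, by the same rule. Over the 9 endothelial types 17 gene and type pairs were lower and 15 higher in the KO library. In Lcn2-led cells 6 of 29 were lower (6.88% of all genes) and 2 higher (4.28%), and in Aqp8-led cells 5 of 27 were lower (7.79%) and 4 higher (5.18%). Tnxb-led cells had 1 of 15 lower (4.21%) and 0 higher (4.48%), VEC-like cells 3 of 32 lower (4.38%) and 0 higher (3.29%), and AEC-like cells 2 of 31 lower (2.62%) and 0 higher (2.61%). The remaining types had 0 lower, with 3 of 23 higher in Marco-led (3.23%), 3 of 30 in HEV-like (2.58%), 2 of 23 in Cxcl12-led (2.31%) and 1 of 15 in capillary-like cells (4.27%).

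Fn1, fibronectin, was lower in the 3 LEC-like groups, at 728 and 280.2 CPM in Lcn2-led, 1832 and 597 CPM in Aqp8-led and 688 and 243 CPM in Tnxb-led cells. Hspg2, the heparan sulfate proteoglycan perlecan of basement membranes, was lower at 142 and 46.3 CPM in Lcn2-led and 81.3 and 31.0 CPM in Aqp8-led cells, and Sparc, a collagen-binding protein, at 738 and 273 CPM in Lcn2-led cells. Of the enzymes that modify collagen, the lysyl hydroxylase Plod2 was lower at 44.3 and 22 CPM in Lcn2-led and 52.0 and 12.8 CPM in Aqp8-led cells. In VEC-like cells Lox, which cross-links collagen fibers, was lower at 156 and 54.8 CPM and P4ha3, a prolyl hydroxylase subunit, at 31.6 and 13.9 CPM. The prolyl hydroxylase subunit P4ha2 was higher at 11.3 and 33.6 CPM in Aqp8-led cells, and Bmp1, which trims procollagen ends, at 14.9 and 32.6 CPM in Marco-led cells. Integrin chains were called in single types, with Itga2 lower at 27.7 and 11.9 CPM in VEC-like, Itga3 lower at 19.3 and 8.11 CPM in Lcn2-led, Itga6 lower at 70.2 and 31.4 CPM in AEC-like and Itgb4 higher at 8.84 and 25 CPM in HEV-like cells.

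Matrix proteases were called in both directions. Adamts1 was lower at 437 and 157 CPM in Lcn2-led, 314 and 126 CPM in Aqp8-led and 472 and 215 CPM in AEC-like cells, and higher at 14.9 and 61.1 CPM in Marco-led and 17.4 and 52.8 CPM in HEV-like cells. Mmp14 was lower at 214.6 and 70.1 CPM in Aqp8-led cells, and Mmp2 higher at 7.96 and 21.3 CPM in Lcn2-led and 3.47 and 11.3 CPM in HEV-like cells. Of the protease inhibitors, Timp2 was higher at 329.8 and 867 CPM in Lcn2-led, 427 and 1004 CPM in Aqp8-led, 167 and 496 CPM in Marco-led and 96.2 and 195 CPM in Cxcl12-led cells. Timp3 was higher at 386 and 1348 CPM in Cxcl12-led, 499 and 1691 CPM in capillary-like and 172 and 554 CPM in Aqp8-led cells, and Timp1 at 11.3 and 31.0 CPM in Aqp8-led cells. Timp1 is X-linked, so its difference cannot be told apart from that in sex.

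Between endothelial types, other matrix genes were called by the rule used for the chains. Capillary-like cells were above AEC-like cells in 5 of 32 (6.94% of all genes), Serpinh1, Nid1, Nid2, Hspg2 and Itga6, and below in 10 (6.08%), P4ha2, P4ha3, Lox, Fn1, Ntn4, Itga3, Itgb4, Ddr1, Mmp2 and Timp2. Hspg2 was at 1122 and 836 CPM in capillary-like and 289 and 223 CPM in AEC-like cells. AEC-like cells were above VEC-like cells in 5 of 34 (4.02%), Lox, Fn1, Itga1, Ddr1 and Adamts1, and below in 3 (5.07%), Loxl2, Itga2 and Itga6. LEC-like cells were above VEC-like cells in 3 of 35 (5.85%), Loxl3, Nid2 and Adamts1, and below in 9 (5.72%), P4ha3, Lox, Hspg2, Sparc, Itga2, Itga3, Itgb1, Bcam and Mmp2. Sparc was at 428 and 162 CPM in the LEC-like sums and 3586 and 2761 CPM in VEC-like cells. HEV-like cells were above VEC-like cells in 2 of 37 (9.43%), Pcolce and Nid2, and below in 18 (8.69%), of which the 10 with the largest ratios were Lox, P4ha3, Mmp2, Ntn4, Fn1, Loxl2, Itgb4, P4ha2, Bmp1 and Timp2.

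Among the closely related groups, Aqp8-led cells were above Lcn2-led cells in 3 of 31 other matrix genes (1.80%), Fn1, Ntn4 and Itgb4, and below in 1 (1.51%), Sparc. Tnxb-led cells were above Lcn2-led cells in 3 of 29 (2.48%), Plod1, Nid2 and Mmp2, and below in 7 (2.30%), Plod2, Hspg2, Sparc, Itga3, Itgb4, Bcam and Adamts1. Capillary-like cells were above Cxcl12-led cells in 2 of 26 (1.95%), P4ha1 and Nid1, and below in 3 (2.36%), Fn1, Itgb4 and Timp2. Marco-led cells were above LEC-like cells in 0 of 32 (6.08%) and below in 5 (5.17%), Plod2, Agrn, Itga6, Itgb4 and Adamts1.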

How the data were processed

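Single-cell RNA was measured in 2 libraries of CD31+ mesenteric cells, 1 control and 1 KO. The authors used a droplet-based 3′ kit (Chromium v3), and UMIs were tallied by the authors with Cell Ranger 3.0 on mm10 per the submitters' processing notes (3.0.1 per the file headers), and the deposited values are raw counts with no normalization.

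Counts were summed per cell group and library and given as CPM with exact Poisson limits, and ratios with exact conditional limits, all at 95%. No p-value was computed, since each genotype is 1 library. All cells were kept. Scrublet marked 142 control (2.08%) and 37 KO cells (0.830%) as doublets, which were removed only as an alternative. Cells with at least 2 Cdh5 UMIs, and the rest, were clustered separately in Seurat 5.3.0 (R 4.3.3, Matrix 1.6.5), with counts scaled to 10000, 2000 variable features, anchor integration, 30 dimensions and resolution 0.8. Chain genes and the 45 other matrix genes were taken out of the features. The 14 endothelial clusters were named from markers that exceeded the remaining endothelial cells by 2-fold, given 3 or more such markers, by limits set after the clusters had been seen. A call needed a 2-fold ratio with 1 count added, 50 UMIs over the compared sums and 10 cells per group. A count of 0 was given the limit of 3 counts. Genes are named in full where they reached 100 CPM in 1 group or were called, and other matrix genes where called, at most 10 per comparison and direction by the size of the smaller ratio. The members and lists were chosen with earlier results of these data known. Promoters came from RefSeq on GRCm38.p6. Python 3.11.15, numpy 2.4.6, scipy 1.17.1, pandas 2.3.3, matplotlib 3.10.9 and scanpy 1.11.5 were used. The call step was tested on simulated counts. Of the remaining endothelial and other clusters, 6 that were neither mesenchymal-like nor haematopoietic-like were left out of the comparisons. The values of 1 gene are not reported here.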

Additional observations from a re-analysis of the deposited data

Results flagged for a closer look

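The ratio of KO over control pointed in opposite directions for the same chain in 2 cell types, in 2 cases. Col14a1 was at a ratio of 2.14 (1.17 to 4.23) in Tnxb-led LEC-like cells and 0.0559 (0.0232 to 0.116) in VEC-like cells. The former was called in 8 of 14 alternative settings and the latter in 14 of 14. Col4a1 was at 0.130 (0.109 to 0.153) in VEC-like and 3.58 (2.16 to 6.31) in AEC-like cells. The VEC-like value rested on 13 control cells that held 624 of 679 UMIs, and its log2 ratio was -0.43 without integration. The AEC-like value started from 17 control UMIs. They were called in 14 of 15 and 14 of 14 alternative settings. The difference between the types was not tested, since each ratio compares 2 libraries.

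A signal also appeared in cells that the comparisons did not use. In a cluster led by Ins2, the insulin gene, with 30 control and 5 KO cells, Col9a3, a chain of cartilage collagen IX, was at 243 CPM (203 to 289) in the control and 144 CPM (92.0 to 214) in the KO library, while it reached at most 3.34 CPM in an endothelial group.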

How the results depend on the processing

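No paired analysis was possible because each genotype has 1 library and no replicate could be left out. Of the 29 called chain and type pairs, 20 were called under every alternative that gave a value, other folds aside. The least stable were Col14a1 in Tnxb-led cells (8 of 14 alternatives), Lama3 in AEC-like cells (11 of 14) and Col15a1 in Cxcl12-led cells (12 of 15). The counts of 23 lower and 6 higher pairs moved past 1.5 times only with the limits of the call. A minimum of 200 UMIs gave 9 lower, no minimum gave 172 lower and 22 higher, a fold of 1.5 gave 41 lower, and a fold of 4 gave 8 lower and 1 higher. For other matrix genes the 17 lower pairs became 10, 98, 52 and 1 under these 4 settings, and the 15 higher pairs 8, 30, 36 and 0, with 9 higher at a resolution of 0.4. The 61 calls between types became 37 at a resolution of 0.4, 37 without integration, 135 with no minimum and 30 at a fold of 4. Col4a2 in VEC-like cells was the only value that reversed, from a log2 ratio of -2.14 to 0.56 without integration. Col4a1 there was at -0.43 without integration. Leaving out the cell with most UMIs of each gene, and VEC-like cells with an Rgcc UMI, were chosen after seeing the data. The former gave -2.56 for Col4a1 and -1.83 for Col4a2. Capillary-like and Tnxb-led groups hold few cells, so chains of low level could not be compared there.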

Other observations

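Within haematopoietic-like cells, Lamb3 and Col27a1 were highest in clusters that carried Cd79a, a B cell receptor gene. In 1 such cluster, of 1089 control and 578 KO cells, Lamb3 was at 80.6 CPM (73.7 to 87.9) in the control and 60.8 CPM (53.3 to 69.1) in the KO library. Levels did not simply follow these markers. In 2 clusters with Cd3e, a T cell receptor gene, Lamb3 lay between 12.5 and 13.4 CPM in both libraries, but in another with Cd3e at 263 CPM, of 508 and 287 cells, it was at 34.2 and 37.3 CPM. Col27a1 was at 68.2 and 57.8 CPM in a small cluster of 64 and 55 cells with Cd79a at 3342 CPM, where Lamb3 was at 12.4 and 21.3 CPM. Col11a2 was at 11.6 and 8.20 CPM in a cluster with Cd3e at 263 CPM.

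The H19-led group of 46 KO cells had no counterpart in the control. It was at 489.9 CPM of Prox1, 784 CPM of Col18a1, 196 CPM of Col4a1, 87.0 CPM of Col5a2 and 12.6 CPM of Col23a1.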
